A study of Mus musculus with 19 samples.

Results

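The mRNAs of 10 proteins that keep or handle stored maternal mRNA were examined in oocytes and embryos from females that differ in their genotype for the RNA-binding protein CPEB3. The genes were chosen by name (Ybx2, Zar1, Zar1l, Lsm14b, Ddx6, Patl2, Dazl, Elavl2, Igf2bp2 and Igf2bp3), and all 10 were listed among the 25891 genes of the deposited table. RNA was sequenced from mature oocytes arrested in metaphase of the second meiotic division (MII) and from 2cell embryos of BL6 females labelled heterozygous (CPEB3+/-) or knockout (CPEB3-/-). Of the 19 libraries, 10 were of MII oocytes (5 of each genotype) and 9 of 2cell embryos (5 of CPEB3+/-, 4 of CPEB3-/-). According to the methods, the CPEB3-/- females carried floxed Cpeb3 alleles and Zp3-Cre, which acts in growing oocytes. CPEB3 made before the deletion may therefore remain. The methods also list LoxP/- with Zp3-Cre among the control genotypes. They do not say whether the CPEB3+/- libraries came from such females. The females were stimulated with PMSG. The methods give hCG for oocytes matured in vivo and for zygotes. They do not say whether the sequenced MII oocytes matured in vivo or in culture. The embryos were cultured from zygotes in M16 medium and also hold the genome of their father. The study mated knockout females with wild-type males to follow development, so embryos labelled CPEB3-/- may hold a wild-type paternal allele. The genotype given for an embryo is that of its mother. Each library came from a pool of a few cells, and the labels do not tie a library to an animal, so the p values measure the spread between these libraries. The values were FPKM, which are fragments divided by the length of the transcript and by the size of the library. Steps between low values put the depth at 17.1 to 23.5 mega-fragments per library (median 19.7).

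The labels were first checked against Cpeb3 itself. Its FPKM was 0.0700, 0.0987, 0.0450, 0.0627 and 0.101 in the CPEB3+/- MII libraries and 0.215, 0.141, 0.164, 0.131 and 0.157 in those labelled CPEB3-/- (A to E). The level was thus higher in every library labelled CPEB3-/-, with a log2 fold change of 0.53 ± 0.12 (SE, limma, adjusted p = 0.0144). Cpeb3 passed the filter on low values (0.1 FPKM in 5 libraries) through the CPEB3-/- libraries, as only 1 CPEB3+/- library reached 0.1 FPKM, so this p is not evidence of a rise. In 2cell libraries Cpeb3 was at most 0.0633 FPKM in either genotype and was too low to be tested. FPKM is 1 value for the whole gene and does not separate deleted from retained exons, so the table does not show the deletion. The study itself reports no Cpeb3 mRNA by PCR and significantly less CPEB3 protein by immunoblot in its knockout oocytes. The genotypes below are those of the labels. Oocyte genes marked the MII libraries as labelled, with a summed level of 10 such genes (Zp1 to Zp3, Gdf9, Bmp15, Mos and others) of 968 to 1650 FPKM. Of 12 markers of cumulus and granulosa cells, the somatic cells around the oocyte, 8 were listed. Their sum was 0.264 to 0.501 FPKM in MII and 0.586 to 1.11 FPKM in 2cell libraries, and 7 of the 8 were below 0.1 FPKM in every MII library. Of 3 blood markers only the globin gene Hba-a1 was listed, at most 0.428 FPKM in MII and 34.3 to 98.7 FPKM in 2cell libraries. Its part in the stage differences below was not tested.

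A growing oocyte makes and stores mRNA that is translated later, when transcription is silent. The stored mRNA is packed by RNA-binding proteins into granules that keep it from decay and translation, and much of it is degraded as the embryo takes over with its own transcripts. YBX2 (MSY2) is the germ cell Y-box protein that coats mRNA. ZAR1 and ZAR1L bind the 3′UTRs of maternal mRNAs. LSM14B, the helicase DDX6 and PATL2 belong to a repressive complex related to that of P-bodies. DAZL and ELAVL2 bind 3′UTR elements and regulate translation, and IGF2BP2 and IGF2BP3 are KH-domain proteins that protect bound mRNAs. CPEB proteins act on the same pool of mRNA through U-rich elements near the 3′ end, from which they direct lengthening or shortening of the poly(A) tail.

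The 3′ ends of the members were read for such elements from the longest annotated 3′UTR of each gene in GENCODE vM21, which uses the GRCm38 build as the files do. The motifs were those listed in the methods of the study, searched on the transcript strand alone. The U-rich group held TTTTAAAT and the like motif TTTTAAGT, the core element TTTTAT and its variants, which are TTTTACT on the one hand and TTTTCAT on the other. The A-rich group held AATAA, which is part of the usual polyadenylation signal, and the motif ATTAAA. The windows of 26 bases that hold the last such motif are shown for the mRNAs on which the results turn, with the motif in capitals and T for U.
Ybx2, U-rich: tctgaagccaTTTTATgaactgtcat
Zar1, A-rich: aaagcctgtgAATAAaaggtattgca
Lsm14b, U-rich: ctcattcacTTTTAAATgagccagtc
Lsm14b, A-rich: atgcaaactaAATAAacattggactc
Dazl, U-rich: gtcaaaattcTTTTATgtcaccaagt
Dazl, A-rich: tgtatacacgAATAAaaccttttttt
Elavl2, U-rich: ctttgtgctTTTTCATgttcggtaca
Elavl2, A-rich: tcggtacatcAATAAacaaagttgaa
Igf2bp3, U-rich: atgcagaataaagTTTTCATcataaa
All are written 5′ to 3′ in the sense of the transcript and lie in the 3′UTR.

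Ybx2 had a 3′UTR of 414 bases with 1 U-rich motif, in the window chr11:69941534-69941559 (plus strand) and 56 bases before the transcript end, and no A-rich motif. Zar1 had the reverse, a 3′UTR of 146 bases with 1 A-rich motif in the window chr5:72577119-72577144 (minus strand) and no U-rich motif. Lsm14b (1181 bases) held 2 U-rich motifs, the last in the window chr2:180035035-180035060 (plus strand) and 414 bases from the end, and 1 A-rich motif in the window chr2:180035431-180035456. The last U-rich motif of Dazl (1854 bases) stood in the window chr17:50279754-50279779 (minus strand), 369 bases from the end, and the last A-rich motif in the window chr17:50279402-50279427. In Elavl2 (2477 bases) the windows of the last U-rich motif, at chr4:91250790-91250815, and of the last A-rich motif, at chr4:91250772-91250797 (minus strand), overlap. The last U-rich motif of Igf2bp3 (2119 bases), in the window chr6:49085223-49085248 (minus strand), was 6 bases from the end. Over the 10 members, 7 held a U-rich and 8 an A-rich motif anywhere in the 3′UTR. Of the 7708 annotated 3′UTRs of genes tested in MII oocytes, 69.4% held a U-rich and 95% an A-rich motif (median length 1061 bases). Among the 9 members with a 3′UTR of at least 100 bases, the last 100 bases held a U-rich motif in 3 (Ybx2, Elavl2 and Igf2bp3) and an A-rich motif in 7. The shares over 7428 genes were 23.9% and 84.7%. Longer 3′UTRs hold more matches by length alone, as in Ddx6 with 5 U-rich and 8 A-rich motifs in 4250 bases, and a match is not a binding site.

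In CPEB3+/- MII oocytes the levels of the 10 mRNAs spanned a wide range. Zar1 was highest at 96.2 ± 31.2 FPKM (SD, n = 5) and was followed by Dazl at 75.2 ± 13.0, and the libraries of these mRNAs overlapped. Next came Lsm14b at 12.2 ± 3.7, Zar1l at 3.67 ± 0.59, Igf2bp2 at 1.33 ± 0.15 and Igf2bp3 at 0.687 ± 0.062 FPKM, each apart from its neighbours. Ddx6 (0.442 ± 0.083), Elavl2 (0.363 ± 0.057) and Ybx2 (0.336 ± 0.092) overlapped in this order, and Patl2 was lowest at 0.148 ± 0.033 FPKM. The low end rests on few fragments. At the median MII depth, 1 fragment was worth about 0.0255 FPKM of Ybx2, so that its mean stood for about 13.2 fragments per CPEB3+/- library, against about 6930 for Zar1. In CPEB3+/- 2cell embryos Dazl led at 14.5 ± 3.5 FPKM and Zar1 followed at 4.18 ± 0.54. Lsm14b (1.65 ± 0.33), Zar1l (1.38 ± 0.58) and Ybx2 (1.33 ± 0.13) could not be ordered beyond the spread of their libraries.

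**Figure D1:**
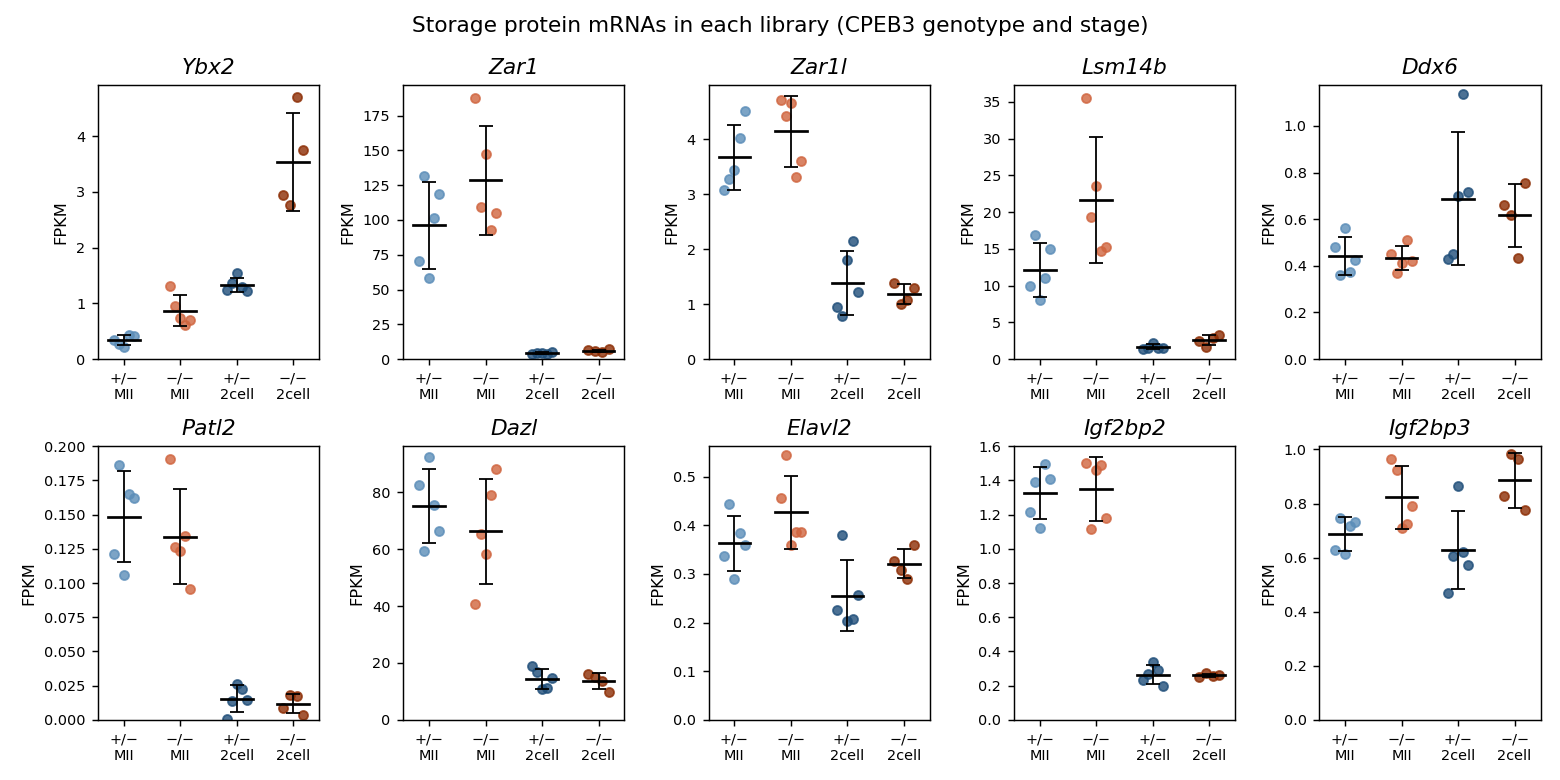
FPKM (vertical axes from 0, 1 panel per gene) of each member in each library, grouped by CPEB3 genotype and stage, with points for libraries, a bar for the group mean and whiskers for the SD. Ybx2 is higher in the CPEB3-/- libraries of both stages with no overlap, while Zar1, Dazl and Lsm14b fall from MII to 2cell in both genotypes.

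The effect of the genotype in MII oocytes was asked first. Ybx2 was the member that changed, and it was higher in CPEB3-/- oocytes. Its FPKM was 0.342, 0.268, 0.220, 0.429 and 0.421 in CPEB3+/- and 1.31, 0.951, 0.737, 0.614 and 0.706 in CPEB3-/- MII libraries. Every CPEB3-/- library lay above every CPEB3+/- library. The means, 0.336 ± 0.092 and 0.864 ± 0.279 FPKM (SD over 5 libraries each), stood in a ratio of 2.57, and the log2 fold change was 1.05 ± 0.19 (SE, 95% interval 0.62 to 1.47, limma with Benjamini-Hochberg adjustment, adjusted p = 0.00544). Fold changes here are of scaled log2(FPKM + 0.1), which understates the change of low mRNAs, and a gene was called at an adjusted p under 0.05 with more than 1.5-fold change. The difference stood at percentile 97.9 of the 10515 tested genes. The supplement of the study names YBX2 among the genes that differ in these MII libraries, so its choice as a member was not independent of this comparison. With a pseudocount of 1 the log2 fold change was 0.43, under 1.5-fold, and with a filter of 1 FPKM Ybx2 was not tested.

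Ybx2 was thus 1 of 10 members called, all 10 having passed the filter on low values. In this comparison 12.9% of all genes were called, 5.59% as higher and 7.29% as lower, and 16.3% had libraries of the genotypes that did not overlap. The share of members is close to that background. The median log2 fold change was 0.09 over the members and 0.01 over all genes.

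Lsm14b, whose protein partners with DDX6, came closest of the others. Its FPKM was 9.89, 16.87, 8.03, 10.98 and 14.96 in CPEB3+/- and 35.6, 19.3, 23.5, 14.6 and 15.3 in CPEB3-/- MII libraries. The genotypes overlapped, since CPEB3+/- library B lay above CPEB3-/- libraries D and E and CPEB3+/- library E between them. The log2 fold change was 0.70 ± 0.23 (SE, 95% interval 0.19 to 1.22, limma, adjusted p = 0.0527). Lsm14b was called in 4 of the 10 other settings and in 3 of the 10 fits without 1 library, and its adjusted p ran from 0.0353 to 0.128 over them all.

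Zar1 was 70.2, 131.7, 58.5, 101.7 and 118.7 FPKM in CPEB3+/- and 187.9, 109.0, 147.6, 93.0 and 105.1 FPKM in CPEB3-/- MII libraries. The range within each genotype exceeded the difference between the means, and the log2 fold change of 0.34 (95% interval -0.15 to 0.82) did not pass the test (limma, adjusted p = 0.286). Dazl was 82.4, 59.4, 92.3, 75.5 and 66.6 FPKM in CPEB3+/- and 40.6, 65.2, 58.4, 79.0 and 88.3 FPKM in CPEB3-/- libraries. Its difference was -0.31 (95% interval -0.85 to 0.22, limma, adjusted p = 0.367). The remaining 6 members differed by between -0.14 (Patl2) and 0.14 (Igf2bp3), and the intervals of all 6 stayed within 1.5-fold either way (0.585 on the log2 scale). For Zar1l the interval was -0.19 to 0.34, for Ddx6 -0.43 to 0.23, for Elavl2 -0.16 to 0.37, and for Igf2bp2 -0.30 to 0.16. Of the exons of Igf2bp3, 18.7% of the bases are shared with Malsu1 on the opposite strand, and no source used here states that the counting used strand, so some of its reads may belong to that gene.

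In 2cell embryos Ybx2 was again the member with the largest difference. It was 1.24, 1.36, 1.54, 1.30 and 1.21 FPKM in CPEB3+/- and 2.94, 2.76, 4.69 and 3.76 FPKM in CPEB3-/- libraries. The genotypes did not overlap, and the lowest CPEB3-/- library was well above the highest CPEB3+/- library. The mean was 1.33 ± 0.13 FPKM over the 5 CPEB3+/- libraries (SD) and 3.54 ± 0.88 over the 4 CPEB3-/- libraries, a ratio of 2.66. The log2 fold change was 1.28 ± 0.17 (SE, 95% interval 0.89 to 1.66, limma, adjusted p = 0.00199) and stood at percentile 96.9 of the 14051 tested genes. Ybx2 was called in each of the 10 other settings and in all 9 fits without 1 library, where the log2 fold change ran from 1.12 to 1.37.

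Zar1 was higher with no overlap, but by less than the fold threshold. It was 3.757, 4.677, 3.996, 3.636 and 4.820 FPKM in CPEB3+/- and 6.16, 5.45, 5.33 and 7.14 FPKM in CPEB3-/- 2cell libraries. The log2 fold change was 0.47 ± 0.14 (SE, 95% interval 0.16 to 0.79, limma, adjusted p = 0.0425). The adjusted p stayed under 0.05 in 2 of the 9 fits that left out 1 library (range 0.0489 to 0.120). Lsm14b was 1.39, 1.55, 2.23, 1.56 and 1.51 FPKM in CPEB3+/- and 2.47, 1.66, 2.86 and 3.27 FPKM in CPEB3-/- libraries. CPEB3+/- library C lay apart from its group, above CPEB3-/- library B, and the difference of 0.54 (95% interval 0.09 to 0.99) was not called (limma, adjusted p = 0.0872). Without CPEB3-/- library B it was 0.72 and Lsm14b was called (limma, adjusted p = 0.0325). Igf2bp3, at 0.470 to 0.863 FPKM in CPEB3+/- and 0.775 to 0.981 FPKM in CPEB3-/- libraries, differed by 0.42 (95% interval 0.04 to 0.80, limma, adjusted p = 0.113).

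One of the 9 members tested in 2cell embryos was therefore called, and 2 of 9 had genotypes that did not overlap. Of all genes, 18.1% were called here (8.53% higher and 9.53% lower) and 20.0% did not overlap, so these counts are again close to the background. The median log2 fold change was 0.23 over the 9 members and -0.00 over all genes. Patl2 was not tested, since it was at most 0.0263 FPKM, about 1 fragment, in every 2cell library. For Dazl (-0.13, 95% interval -0.64 to 0.38), Ddx6 (-0.13, -0.71 to 0.46), Zar1l (-0.16, -0.75 to 0.43) and Elavl2 (0.23, -0.19 to 0.65) the intervals allow differences of over 1.5-fold. The interval of Igf2bp2 (-0.04, -0.40 to 0.33) does not. The scaling bears on all these values, since dividing by the sum of FPKM in place of trimmed means moved the median over all genes to 0.26 (2cell) and 0.15 (MII). In 2cell embryos that scaling turned the direction of Dazl, Ddx6, Zar1l and Igf2bp2, none of them called, and it called Zar1, Lsm14b and Igf2bp3 beside Ybx2.

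**Figure D2:**
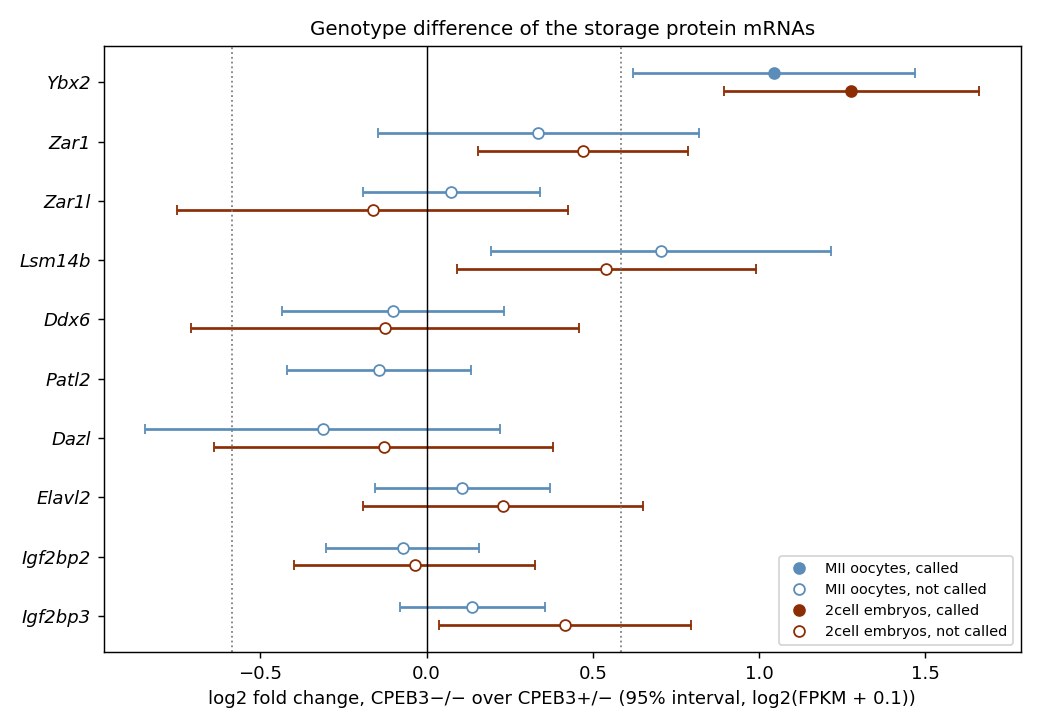
Log2 fold change of each member, CPEB3-/- over CPEB3+/-, in MII oocytes and in 2cell embryos, with 95% intervals; filled points were called, and dotted lines mark 1.5-fold. Ybx2 is called in both stages, at 1.05 and 1.28, and no other member is.

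The base composition of the mRNAs is given beside these differences, and its relation to them over the members was not tested. The transcripts of Ybx2 and Zar1 are among the richest in G and C, at 63.4% and 62.1% (percentiles 99.3 and 98.8 of the genes tested in MII oocytes, median 48.4%). Those of Dazl (37.0%) and Elavl2 (38.5%) are among the poorest, at percentiles 1.33 and 3.10. Lsm14b is near the middle at 49.8%. In every library the level of genes fell with GC content, by a slope of -0.215 to -0.149 (log2 FPKM per 10 points of GC) in CPEB3+/- and -0.154 to -0.0573 in CPEB3-/- MII libraries. The slopes were -0.141 to -0.0616 in CPEB3+/- and -0.0957 to -0.0355 in CPEB3-/- 2cell libraries.

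When the trend with GC content was taken out of each library, the log2 fold change of Ybx2 fell to 0.74 in both stages, and it was still called in both. That of Zar1 fell to 0.04 in MII oocytes and -0.02 in 2cell embryos, where its direction turned. Dazl moved the other way, to 0.06 in MII oocytes and 0.38 in 2cell embryos, and was not called in either. Elavl2 moved to 0.42 (MII) and 0.68 (2cell), and was called in 2cell embryos (limma, adjusted p = 0.0411). Lsm14b kept 0.66 and 0.52. This step removes any real difference that runs with GC content together with a technical one, and these cannot be told apart here.

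**Figure D3:**
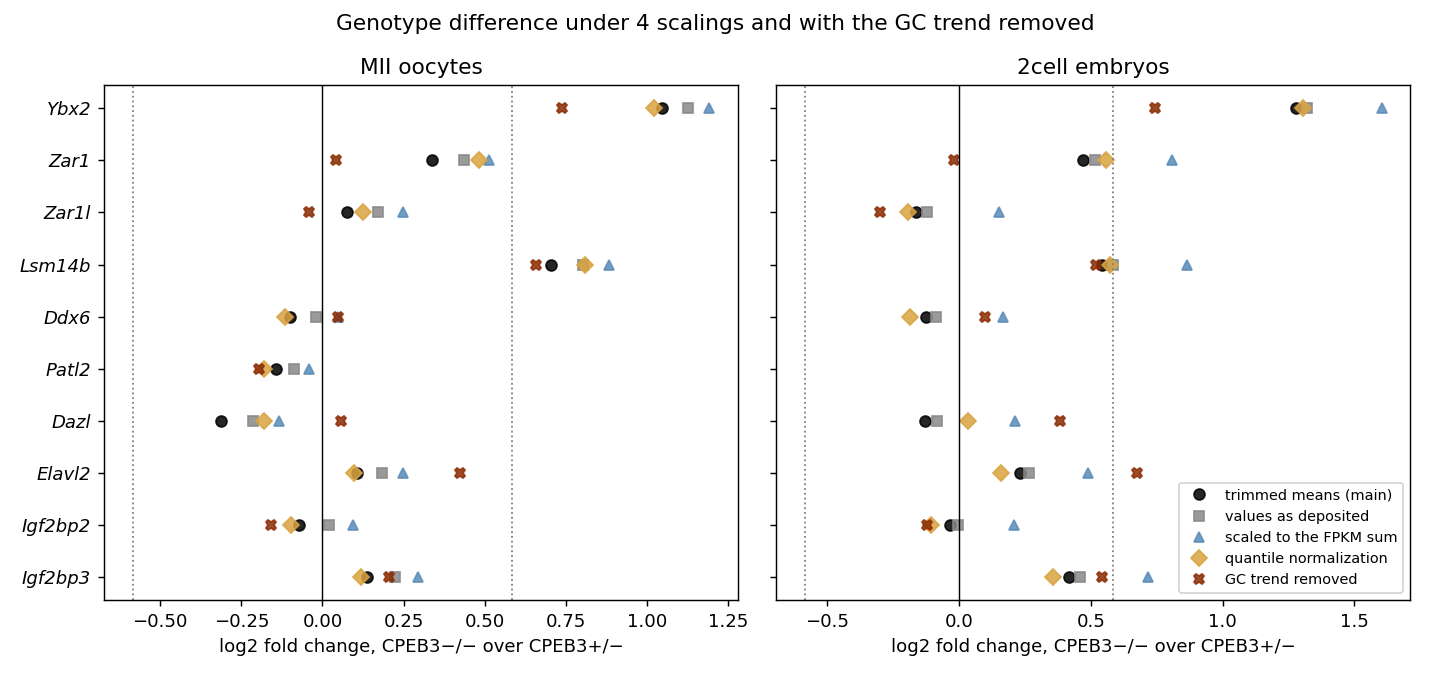
Log2 fold change of each member (horizontal axis; dotted lines at 1.5-fold), CPEB3-/- over CPEB3+/-, under 4 scalings and with the GC trend removed, in MII oocytes and 2cell embryos. Ybx2 stays right of the 1.5-fold line in all of them, although it falls to 0.74 in both stages when the GC trend is removed, and Zar1, Dazl and Elavl2 move with that step too.

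Within a genotype, too, the MII libraries had a like order in Zar1, Lsm14b and Dazl, which were picked after their values were seen. In CPEB3+/- oocytes the libraries ranked C, A, D, E, B from lowest to highest in both Zar1 and Lsm14b, and exactly the other way in Dazl. In CPEB3-/- oocytes library A was highest in Zar1 and Lsm14b and lowest in Dazl, followed by C and then B in all 3 mRNAs, while library D was below E in each of them. In CPEB3+/- oocytes Igf2bp3 had the order of Zar1 and Lsm14b too, and Patl2 and Elavl2 differed from it by a swap of D and E, whereas Ybx2 ranked C, B, A, E, D and Zar1l A, B, C, D, E from lowest to highest. Ddx6 ranked B, D, E, A, C and Igf2bp2 C, A, B, E, D. In CPEB3-/- oocytes Zar1l had the order of Zar1 and Lsm14b, and the other 6 members did not. By GC slope, from the steepest, the libraries ranked C, A, D, B, E in CPEB3+/- and E, D, B, C, A in CPEB3-/- oocytes, which differs from the order of Zar1 and Lsm14b by a swap of B and E and of D and E. Library A of CPEB3-/- had the least steep slope of the MII libraries (-0.0573), and was 187.9 FPKM in Zar1, 35.6 in Lsm14b and 40.6 in Dazl. Library C of CPEB3+/- had the steepest (-0.215), and was 58.5, 8.03 and 92.3 FPKM in the same mRNAs.

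**Figure D4:**
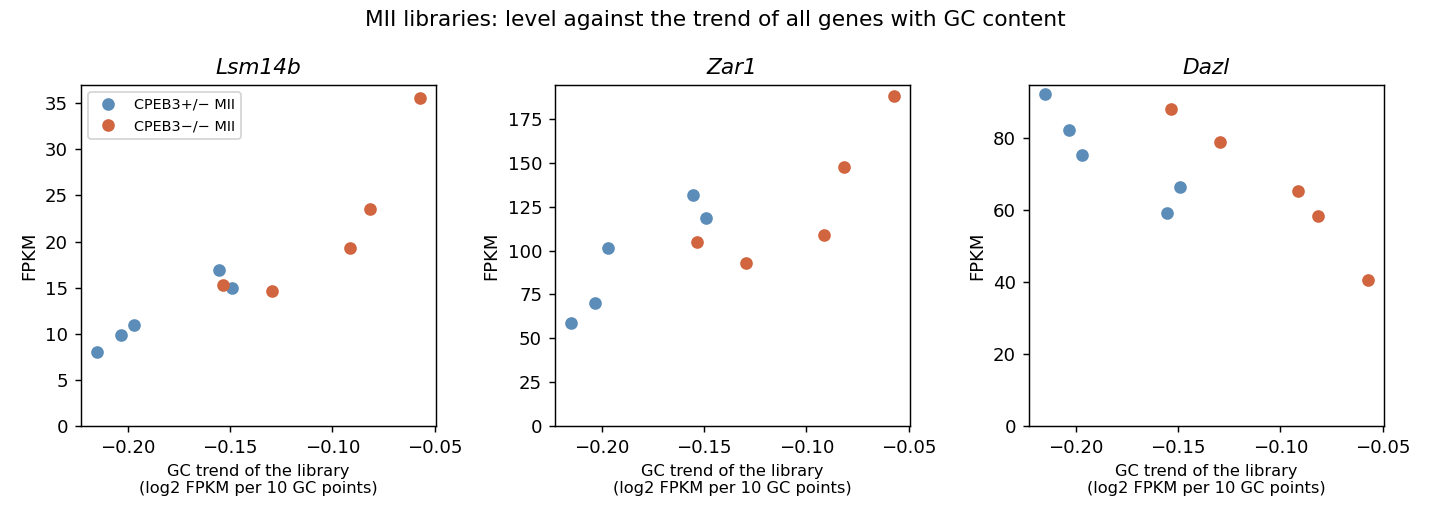
FPKM of Lsm14b, Zar1 and Dazl in each MII library against the slope of all genes with GC content in that library (log2 FPKM per 10 points of GC), with points coloured by genotype. Library A of CPEB3-/-, at -0.0573, is highest in Lsm14b and Zar1 and lowest in Dazl.

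The genes whose levels ran most alike with each member were looked up among 4803 genes, by Pearson's r over the 19 libraries after the mean of each stage was taken out. These values include the genotype difference and the libraries share depth and base composition, so r is a description. For Ybx2 they were Kctd3 (r = 0.957), Ube4b (0.952) and Prickle1 (0.942), and for Dazl Tiparp (0.953), Nedd1 (0.942) and Spin1 (0.938). Lsm14b ran with CT010467.1 (0.920), Lars2 (0.914) and Axin2 (0.909), and CT010467.1 was also among the 3 nearest to Zar1 (0.844, after Smdt1 at 0.895 and 0610012G03Rik at 0.846). The files give CT010467.1 as an rRNA. It was 294 to 931 FPKM (median 479) in CPEB3+/- and 929 to 3828 FPKM (median 1372) in CPEB3-/- MII libraries, with library C of CPEB3+/- again lowest in its group and library A of CPEB3-/- highest. In 2cell libraries it was 458 to 740 FPKM in CPEB3+/- and 1596 to 2610 FPKM in CPEB3-/-, without overlap. The part of this rRNA signal in the differences of Ybx2, Lsm14b and Zar1 was not tested. Igf2bp3 ran with Cdr2 (0.941), Zfp46 (0.883) and N4bp1 (0.872). The leading gene reached 0.858 for Zar1l (Gde1), 0.827 for Ddx6 (Nasp), 0.774 for Elavl2 (Btg2) and 0.637 for Igf2bp2 (Stau1). Patl2 was not looked up, as it was not tested in 2cell embryos. Among the members themselves, Lsm14b ran with Zar1 (r = 0.82) and Ybx2 (0.79) and against Dazl (-0.83).

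The passage from MII oocyte to 2cell embryo was compared in each genotype, in 1 fit of all 19 libraries. FPKM is relative to the RNA sequenced. A lower value can mean less RNA per cell, more of other RNA or a shorter poly(A) tail that is captured less. These cannot be told apart. Zar1 fell most. It was 58.5 to 131.7 FPKM in MII oocytes and 3.64 to 4.82 FPKM in 2cell embryos of CPEB3+/-, with a log2 fold change of -4.66 ± 0.18 (SE, limma, adjusted p = 8.54e-14). Counted from the highest change, it ranked 15770 of 15786 tested genes. In CPEB3-/- it went from 93.0 to 187.9 FPKM down to 5.33 to 7.14 FPKM (-4.51 ± 0.19).

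Lsm14b fell by 2.998 on the log2 scale in CPEB3+/- and by 3.14 in CPEB3-/-. Dazl fell by 2.61 and 2.41, and was the most abundant member in 2cell embryos, at 10.95 to 18.88 FPKM in CPEB3+/- and 9.61 to 16.1 FPKM in CPEB3-/-. Igf2bp2, at 1.12 to 1.5 FPKM in every MII library and 0.197 to 0.336 FPKM in every 2cell library, fell by 2.17 and 2.12. Zar1l fell by 1.65 and 1.86. The values of Patl2 were -1.20 and -1.08. It passed the filter on low values only through the MII libraries, at 0.0954 to 0.191 FPKM, so it had to be lower in 2cell libraries and its call is no evidence of a fall. It rests on about 7 fragments per MII library and about 1 or none per 2cell library, and with a pseudocount of 1 it was not called.

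Ybx2 was the member that rose. It went from 0.220 to 0.429 FPKM up to 1.21 to 1.54 FPKM in CPEB3+/- (log2 fold change 1.55 ± 0.18, SE, limma, adjusted p = 2.88e-07) and from 0.614 to 1.31 FPKM up to 2.76 to 4.69 FPKM in CPEB3-/- (1.78 ± 0.19, limma, adjusted p = 1.05e-07). The ratios of the mean FPKM were 3.96 and 4.10. Ybx2 was called as higher in all 9 other settings in each genotype, at log2 fold changes of 0.72 to 1.74 in CPEB3+/- and 1.09 to 1.93 in CPEB3-/-. The CPEB3-/- MII libraries reached 1.31 FPKM, within the range of CPEB3+/- 2cell embryos.

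Under the main settings Ddx6, Elavl2 and Igf2bp3 were not called in either genotype. Elavl2 differed by -0.57 in CPEB3+/- (95% interval -0.85 to -0.29, limma, adjusted p = 8.78e-04) and -0.43 in CPEB3-/- (-0.73 to -0.14, limma, adjusted p = 0.0106), under 1.5-fold. Igf2bp3 differed by -0.33 (-0.58 to -0.08) and -0.04 (-0.31 to 0.23), and Ddx6 by 0.29 (-0.15 to 0.73) and 0.28 (-0.19 to 0.75). The median of all genes was 0.21 in both genotypes under the main scaling, -0.17 and -0.07 after scaling to the FPKM sum and -0.24 and -0.26 after quantile normalization. Under both of the latter the direction of Ddx6 turned and Elavl2 was called as lower in both genotypes, while Igf2bp3 was called as lower in CPEB3+/-. With the GC trend removed Ddx6 was called as higher in CPEB3-/- (0.59, limma, adjusted p = 0.0221). Elavl2 was called as lower in CPEB3+/- without CPEB3+/- MII library E (-0.59) or CPEB3+/- 2cell library B (-0.68). The 5 falls other than that of Patl2 and the rise of Ybx2 kept their direction and their call under both.

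In each genotype 6 of the 9 members other than Patl2 were called, 5 lower and 1 higher, and the same 6 had stages that did not overlap. The background of this contrast is high. In CPEB3+/- 66.4% of all genes were called, 38.2% higher and 28.2% lower, with 58.9% not overlapping. In CPEB3-/- 65.2% were called, 38.2% higher and 27.0% lower, with 59.3% not overlapping. The number of members called was near that background. Higher genes made up 57.6% and 58.6% of all calls under the main scaling, 45.6% and 48.9% after scaling to the FPKM sum, and 41.4% and 41.5% after quantile normalization, so the direction in which most genes were called depends on the scaling. Whether the split of the members differs from that of all genes was not tested. The median was -1.65 and -1.86 over these 9 members against 0.21 over all genes under the main scaling.

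**Figure D5:**
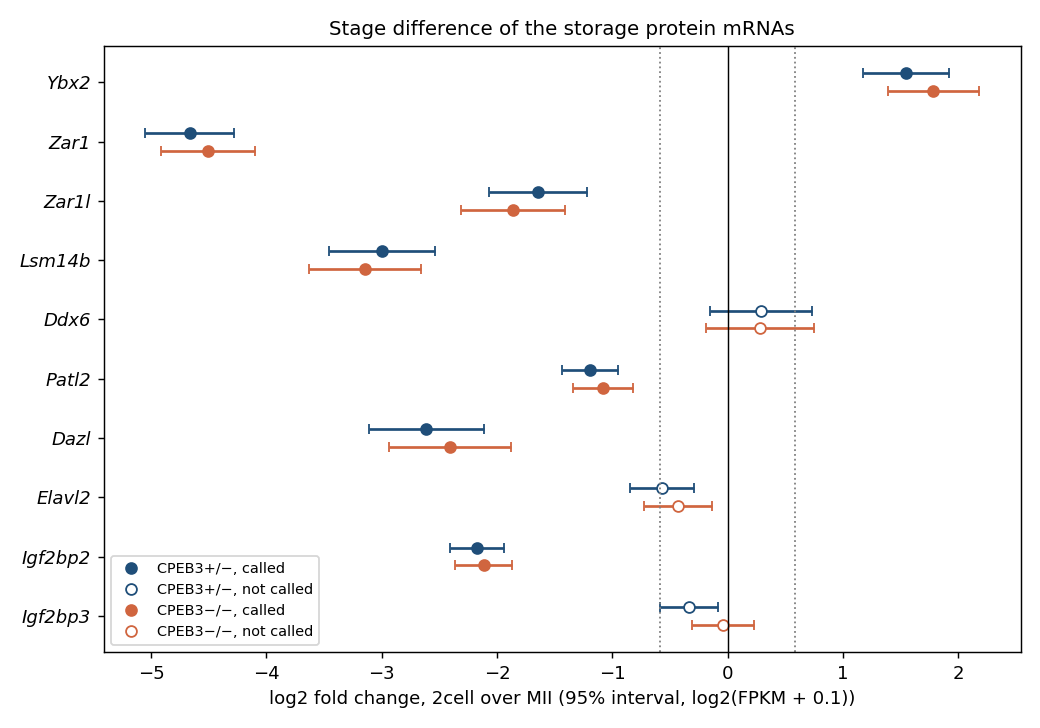
Log2 fold change of each member, 2cell embryos over MII oocytes, in CPEB3+/- and CPEB3-/-, with 95% intervals; filled points were called, and dotted lines mark 1.5-fold. Zar1 falls most, at -4.66 and -4.51, and Ybx2 alone among the members is called as higher, at 1.55 and 1.78.

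Whether the stage difference depended on genotype was tested by the interaction in the same fit. None of the 10 members was called by limma, and none had an unadjusted p under 0.05, while 7.76% of all genes were called. The interaction of Ybx2 was 0.23 (95% interval -0.31 to 0.78, limma, adjusted p = 0.642), and the largest was 0.29 for Igf2bp3 (-0.07 to 0.66, limma, adjusted p = 0.338). Intervals were wide for Zar1 (-0.41 to 0.72), Dazl (-0.52 to 0.93) and Lsm14b (-0.81 to 0.52), so that a moderate difference between the genotypes in the fall of these mRNAs was not detectable.

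Other proteins of the storage granules were then listed, 24 partners in all. They were translation repressors, P-body and decapping proteins, and RNA-binding proteins such as PUM, STAU, FXR1 and G3BP. In MII oocytes none of the 22 tested was called by limma, where 12.9% of all genes were called. The median log2 fold change was 0.04 against 0.01 for all genes. Dcp1a passed the adjusted p alone (0.42, limma, adjusted p = 0.00791), under 1.5-fold and with no overlap between genotypes. An unadjusted p under 0.05 was found for 6 partners, and the matching share of all genes was not computed. In 2cell embryos 6 of 22 were called, 4 higher and 2 lower (over all genes, 18.1% were called, 8.53% higher and 9.53% lower), with a median of 0.10 against -0.00. The 3 largest were Ybx3, another Y-box protein, at 1.34 ± 0.55 and 3.12 ± 0.53 FPKM (CPEB3+/-, n = 5; CPEB3-/-, n = 4; log2 fold change 1.18), Edc4, a scaffold of the decapping complex, at 0.258 ± 0.081 and 0.702 ± 0.193 FPKM (1.13), and Eif4e, the cap-binding protein, at 13.5 ± 2.0 and 6.79 ± 0.94 FPKM (-1.02). Their adjusted p values in limma were 0.0167, 0.00741 and 0.00242, and none of the 3 overlapped between genotypes. Between the stages 19 of 23 tested partners were called in CPEB3+/-, 4 higher and 15 lower, and 18 of 23 in CPEB3-/-, 5 higher and 13 lower. The lower ones include Stau2, which passed the filter on low values only through the MII libraries. It was at most 0.0471 FPKM in 2cell libraries, so its call is no evidence of a fall. Over all genes 66.4% and 65.2% were called, 28.2% and 27.0% as lower, under the main scaling. Eif4e was among those higher, at 1.54 and 1.04.

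The members have 9 relatives in the same gene families on the list used, of which 8 were in the table. In MII oocytes 1 of the 6 tested was called (12.9% of all genes), Elavl3, an ELAV-like protein known from neurons, which was higher by 1.17 (limma, adjusted p = 0.0109), from 0.479 ± 0.214 to 1.26 ± 0.39 FPKM (n = 5 each). In 2cell embryos 2 of 7 were called (18.1% of all genes), both higher, namely Elavl3 (0.95, limma, adjusted p = 0.00866) and Ybx3, which is on both lists. Of the 10 oocyte genes, 1 was called in MII oocytes (12.9% of all genes) and 1 in 2cell embryos (18.1%). Mos, the kinase that holds the MII arrest, was called in MII oocytes at -1.75 (214 ± 48 and 67.5 ± 12.3 FPKM, limma, adjusted p = 1.52e-04). Oosp1 was called in 2cell embryos at -0.69 (limma, adjusted p = 0.0257). Under 1.5-fold and without overlap, Padi6 was higher (0.56, limma, adjusted p = 0.00592) and H1foo lower (-0.55, limma, adjusted p = 0.0206) in MII oocytes. Gdf9 was likewise higher in 2cell embryos (0.56, limma, adjusted p = 0.0120). Among 8 genes typical of the 2cell stage, 3 of 4 tested were called as higher in MII oocytes (5.59% of all genes). Zscan4d was at 1.15 ± 0.29 and 9.88 ± 2.81 FPKM there, with a log2 fold change of 2.89 (limma, adjusted p = 9.07e-05). Zscan4c was higher by 2.24 and Zscan4f by 1.63. In 2cell embryos 1 of the 7 tested, Zscan4d, was called (18.1% of all genes), and was lower at -1.02 (limma, adjusted p = 0.0402). Of the cumulus markers, 2 were tested in 2cell embryos and 1 was called (18.1% of all genes). This was Tnfaip6, lower at -0.999 (limma, adjusted p = 0.0151), from 0.274 ± 0.088 to 0.0905 ± 0.0403 FPKM. It passed the filter on low values through the CPEB3+/- libraries (0.217 to 0.427 FPKM, against 0.0372 to 0.133 in CPEB3-/-). Its call is therefore no evidence of a fall. The other marker, Amhr2, differed by 0.07 (limma, adjusted p = 0.837).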

How the data were processed

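Per the labels, the libraries were prepared with a SMART-seq v4 kit, which primes on the poly(A) tail, so that an mRNA with a short tail may be captured less. The part of tail length in the differences between genotypes or stages was not tested. According to the methods and the submitters' processing notes, the authors used Trim Galore (0.4.1) for trimming and HISAT2 (2.0.5) for mapping to GRCm38, and computed the deposited FPKM in SeqMonk. The table is named as raw counts, yet 0.00203% of its values are whole numbers above 0, and it was read as FPKM. It held 0 further columns of values. The methods give quadruplicates, while the labels list 5, 5, 5 and 4 libraries, all used here.

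The planned limma test for FPKM was run (limma 3.58.1, R 4.3.3) on log2(FPKM + 0.1) with a variance trend, after scaling by trimmed means of log ratios (30% of ratios and 5% of levels trimmed). Genotypes were compared within a stage among genes with 0.1 FPKM in 5 MII or 4 2cell libraries, with genotype as the only term. Stages and the interaction were compared in 1 fit of all 19 libraries among genes with 0.1 FPKM in at least 4. Adjustment (Benjamini-Hochberg) was over all genes of a fit. The method was also run on simulated data as a check of the code, which is no support for the calls given here. Group values are means ± SD of the deposited FPKM. Depth was estimated from steps between low values among 9257 genes with 1 transcript, as the depth that put most of them near whole fragments. At that depth 43.1% to 49.8% of the low values lay within 0.05 of a whole fragment. By chance 10% would at a depth fixed beforehand, which is not the chance level of a depth chosen this way. The GC trend was a loess fit (span 0.5) per library on the longest protein-coding transcript. Motifs were read from GENCODE vM21 transcripts.

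The members and lists were chosen with earlier results of these data known. Named are all members, Cpeb3, up to 3 called genes with the largest difference per list and genotype comparison, and the 3 genes most alike to each member with a mean of at least 1 FPKM. Alternatives were the values as deposited, scaling to the FPKM sum, quantile normalization, no filter, a filter of 1 FPKM, a pseudocount of 1, adjusted p alone, GC trend removed, the replicate letter as a block, all 19 libraries in 1 fit, and each library left out. Figures were drawn with matplotlib 3.10.9 (Python 3.11.15, numpy 2.4.6, pandas 2.3.3).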

Additional observations from a re-analysis of the deposited data

Results flagged for a closer look

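Of 40 groups of values (10 members in 4 groups), 1 held a library apart from the others by Dixon's test at the 95% level, where chance would give about 1 in 20. In CPEB3+/- 2cell embryos, Lsm14b was at 2.23 FPKM in library C, against 1.39 to 1.56 FPKM in the other 4 libraries. The genotype difference of Lsm14b in 2cell embryos ran from 0.40 to 0.72 over the fits that left out 1 library each. Library C also had the highest CT010467.1 rRNA value of its group (740 FPKM) and the least steep GC slope (-0.0616), and their part in its Lsm14b value was not tested.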

How the results depend on the processing

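In MII oocytes the number of members called was 1, and 2 after scaling to the FPKM sum, with quantile normalization and in 1 fit of all 19 libraries (Ybx2 and Lsm14b each time), and 0 with a pseudocount of 1. With a filter of 1 FPKM it was 1, Lsm14b, as Ybx2 was not tested. In 2cell embryos the number was 1, and 4 after scaling to the FPKM sum, 2 with a filter of 1 FPKM (Ybx2 and Lsm14b), 2 by adjusted p alone (Ybx2 and Zar1) and 2 with the GC trend removed (Ybx2 and Elavl2). Without 1 library the counts ran from 1 to 2 in both stages, the second gene being Lsm14b without CPEB3+/- MII library B, CPEB3-/- MII library D or E, or CPEB3-/- 2cell library B. Zar1 in 2cell embryos turned to -0.0197 with the GC trend removed. The numbers of members called between stages and by the interaction stayed within 1.5 times in every setting run. The replicate letters did not pair the libraries (correlations of same-lettered libraries -0.144 to 0.094 between genotypes). With the replicate block the counts of members called were the same 1 and 1, while calls over all genes went from 1355 to 824 in MII oocytes and from 2537 to 369 in 2cell embryos. Over all genes the calls fell to 1038 without a filter, 774 with a filter of 1 FPKM and 481 with a pseudocount of 1 in MII oocytes, and to 1496 and 1162 with the latter 2 in 2cell embryos. The share of calls that were higher was 43.4% in MII oocytes and 47.2% in 2cell embryos, and 70.1% and 81.0% after scaling to the FPKM sum. Of 1190 values of members under alternatives, 1160 were called or not as under the main settings, 26 gained a call and 3 lost it. The remaining 1 was that of Zar1 in 2cell embryos with the GC trend removed. It changed sign and was called in neither setting, and is set apart because its main adjusted p was under 0.05. A further 43 changed sign without being called in either setting and are counted among the 1160. The causes were not tested. Depth limits Patl2 (about 1 fragment per 2cell library) and Ybx2 in CPEB3+/- MII libraries (about 13.2 fragments).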
